A study of Mus musculus with 36 samples.

Results

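The genes described here are 10 genes of the integrated stress response, taken by name from the table of normalised expression values: Atf4, Atf5, Ddit3, Ddit4, Chac1, Trib3, Sesn2, Asns, Psat1 and Slc7a11. They are 10 of the 22761 genes in that table, and all 10 were present and passed the filter on low values in each of the 18 comparisons made. The study compared kidney progenitors made from mouse embryonic stem (ES) cells with the same progenitors sorted from embryonic kidneys, which are called ex-fetu here, and it sequenced the mRNA of 36 samples in 9 groups of 4. Ex-fetu nephron progenitors (NP, ITGA8 high and PDGFRA low), stromal progenitors (SP, ITGA8 low and PDGFRA high) and ureteric bud cells (UB, RET+ and EpCAM+) came from CD1 mouse embryos at embryonic day (E) 11.5 or E12.5. For each ex-fetu sample the kidneys of all embryos of a single mouse were pooled, and kidneys were used fresh or kept at 4 °C for up to 3 days, and the sources used here do not say which sample was which. The ES-derived nephron (iNP) and stromal (iSP) progenitors were sorted by the same 2 surface proteins from embryoid bodies of the E14 line, and the ES-derived ureteric bud cells (eUB, titled iUB) were EpCAM+/mCherry+ cells of a reporter line that the labels call Sox9-mCherry, whereas the reporter line whose making the study describes is Sox8-mCherry. Cells positive for CD31, EpCAM or RET were gated out of the NP, SP, iNP and iSP sorts. Each ES-derived sample was a single batch of differentiation in a base medium with N2, B27, ascorbic acid and 1-thioglycerol. ES-derived and ex-fetu groups therefore differ in strain or line, in culture and in tissue handling as well as in origin, and these cannot be told apart. The eUB were also made from another ES line and by another differentiation protocol than iNP and iSP. Where eUB are compared with iNP or iSP, cell type cannot be told apart from line and protocol. For the ureteric bud samples the label of the cell source gives the opposite stage from the title and the cell type label; the titles were used.

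The integrated stress response is a pathway in which a set of kinases (PERK, GCN2, HRI and PKR) phosphorylate the translation factor eIF2. General protein synthesis then falls, while the mRNA of the transcription factor ATF4 is translated better, because upstream reading frames in its leader no longer hold ribosomes back. ATF4 and its partners switch on genes for amino acid uptake and synthesis, tRNA charging, antioxidant defence and, when the stress lasts, cell death. The pathway is known to answer amino acid shortage, endoplasmic reticulum (ER) stress, oxidative stress and haem shortage. The values here are mRNA levels, so neither the phosphorylation of eIF2 nor the amount of ATF4 protein was measured.

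Values are normalised read counts scaled to the size of each library (counts per 1e6 reads, CPM). Between 13.004 and 52.5 M reads were counted per library, so that 3 reads correspond to 0.0605 to 0.223 CPM. Differences are on the log2(value + 1) scale, from limma with Benjamini-Hochberg adjustment over all genes tested, and a gene is said to be called when its adjusted p was below 0.05. The labels were compared with the summed level of 7 markers for each cell type. NP markers summed to 1153 to 1287 CPM in E11.5 NP and 480.1 to 706 in iNP, SP markers to 4246 to 6390.2 in E11.5 SP and 3833 to 4033 in iSP, and UB markers to 3053 to 3240.1 in E11.5 UB and 2724 to 2925 in eUB. By these sums the ex-fetu, eUB and iSP groups had the markers of their own label highest, and iNP did not. The lists hold genes of different kinds, and that of SP includes collagen genes. Sums of different lists are thus not on a common scale and do not rank identities within a group. SP markers summed to 618 to 933 in iNP, above its own NP markers in every library, against 311 to 352 in E11.5 NP, and UB markers to 105 to 133 against 36.3 to 64.1. In iSP, NP markers summed to 305 to 329 against 94.5 to 154 in E11.5 SP. Among the defining markers, Six2 of nephron progenitors was 590.2 ± 35.7 CPM (SD, n = 4) in E11.5 NP and 139 ± 15.9 in iNP, and Foxd1 of cortical stroma 410.4 ± 126 in E11.5 SP and 15.2 ± 3.67 in iSP. Macrophage markers (6 genes) summed to 49.6 to 88.3 CPM in E11.5 UB and 39.2 to 66.5 in E12.5 UB, and to 0.223 to 0.558 in eUB, where C1qa and Fcgr1 were at 0. Endothelial markers (5 genes), although CD31+ cells were gated out, summed to 9.30 to 29.1 in E11.5 NP and 44.6 to 76.0 in iNP. Erythroid markers (6 genes) summed to 42.3 to 390.3 in E12.5 SP and to 0.242 to 0.394 in iSP, where 4 of them were at 0. Neural markers (5 genes) summed to 5.37 to 12.3 in E11.5 NP and 52.4 to 74.3 in iNP, and pluripotency markers (4 genes) to at most 5.65 CPM in the ES-derived libraries. The part that these cells have in the differences below was not tested.

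The 3 E12.5 libraries numbered 1 were often the lowest of their group in the 10 genes. Over all genes, the difference of a library from the mean of the other 3 of its group had an SD of 0.521 to 0.640 on the log2 scale in these libraries and of 0.164 to 0.535 in the other 33, so that the ranges overlapped: iNP replicate 2 (0.535) lay above E12.5 NP replicate 1 (0.521). In E12.5 UB, replicate 1 also held NP markers at 326 CPM (the other 3 libraries 30.4 to 41.3), SP markers at 757 (23.6 to 44.9), endothelial markers at 89.4 (2.94 to 5.30) and pluripotency markers at 15.6 (0.628 to 0.663). Of the 10 genes described here, 8 had their lowest value of the group in replicate 1 in all 3 E12.5 cell types, and the calls of the 10 genes against E12.5 are therefore given with and without these libraries. In bulk samples a lower value can come from fewer cells that use the gene or from less RNA in each cell, and these cannot be told apart.

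Promoters of the 10 genes, 250 bases before to 50 after the annotated start, were taken from RefSeq (build GRCm38.p6) for all 10, in 12 windows. The letters TGATGNAA, the C/EBP-ATF response element type (CARE) through which ATF4 and C/EBP partners bind, were present on either strand in 4 of the 10 genes and in 4.51% of the 27025 genes with a promoter in the table. The 3 genes shown are each called in comparisons below, and Slc7a11 holds 2 matches. Trib3, which also holds a match and is called, is not shown. Matches are in capitals, and each sequence reads 5′ to 3′ on the strand of the gene.
Chac1, chr2:119351029-119351076, plus strand: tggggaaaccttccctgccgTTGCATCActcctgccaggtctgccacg
Slc7a11, chr3:50443633-50443699, minus strand: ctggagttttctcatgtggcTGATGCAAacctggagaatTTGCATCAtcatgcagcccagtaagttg
Asns, chr6:7693210-7693252, minus strand: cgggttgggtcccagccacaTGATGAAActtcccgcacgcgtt
By the RefSeq start, the match lies 193 bases before it in Chac1, 66 and 47 bases before it in Slc7a11 and 23 bases before it in Asns. In Trib3 the match lies after the RefSeq start, at bases 15 to 22. The GENCODE positions given below for these genes start elsewhere, and by them the match of Trib3 lies before the gene and that of Asns inside it. The letters TGACNNNGC of the antioxidant response element, bound by NRF2, were found in Sesn2 and Asns, and in 14.0% of all genes with a promoter in the table, and the ER stress response element (ERSE) in 0 of the 10 and in 0.137% of all. A match of letters does not show that a factor binds there, and the other members may hold such letters outside these windows.

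**Figure D1:**
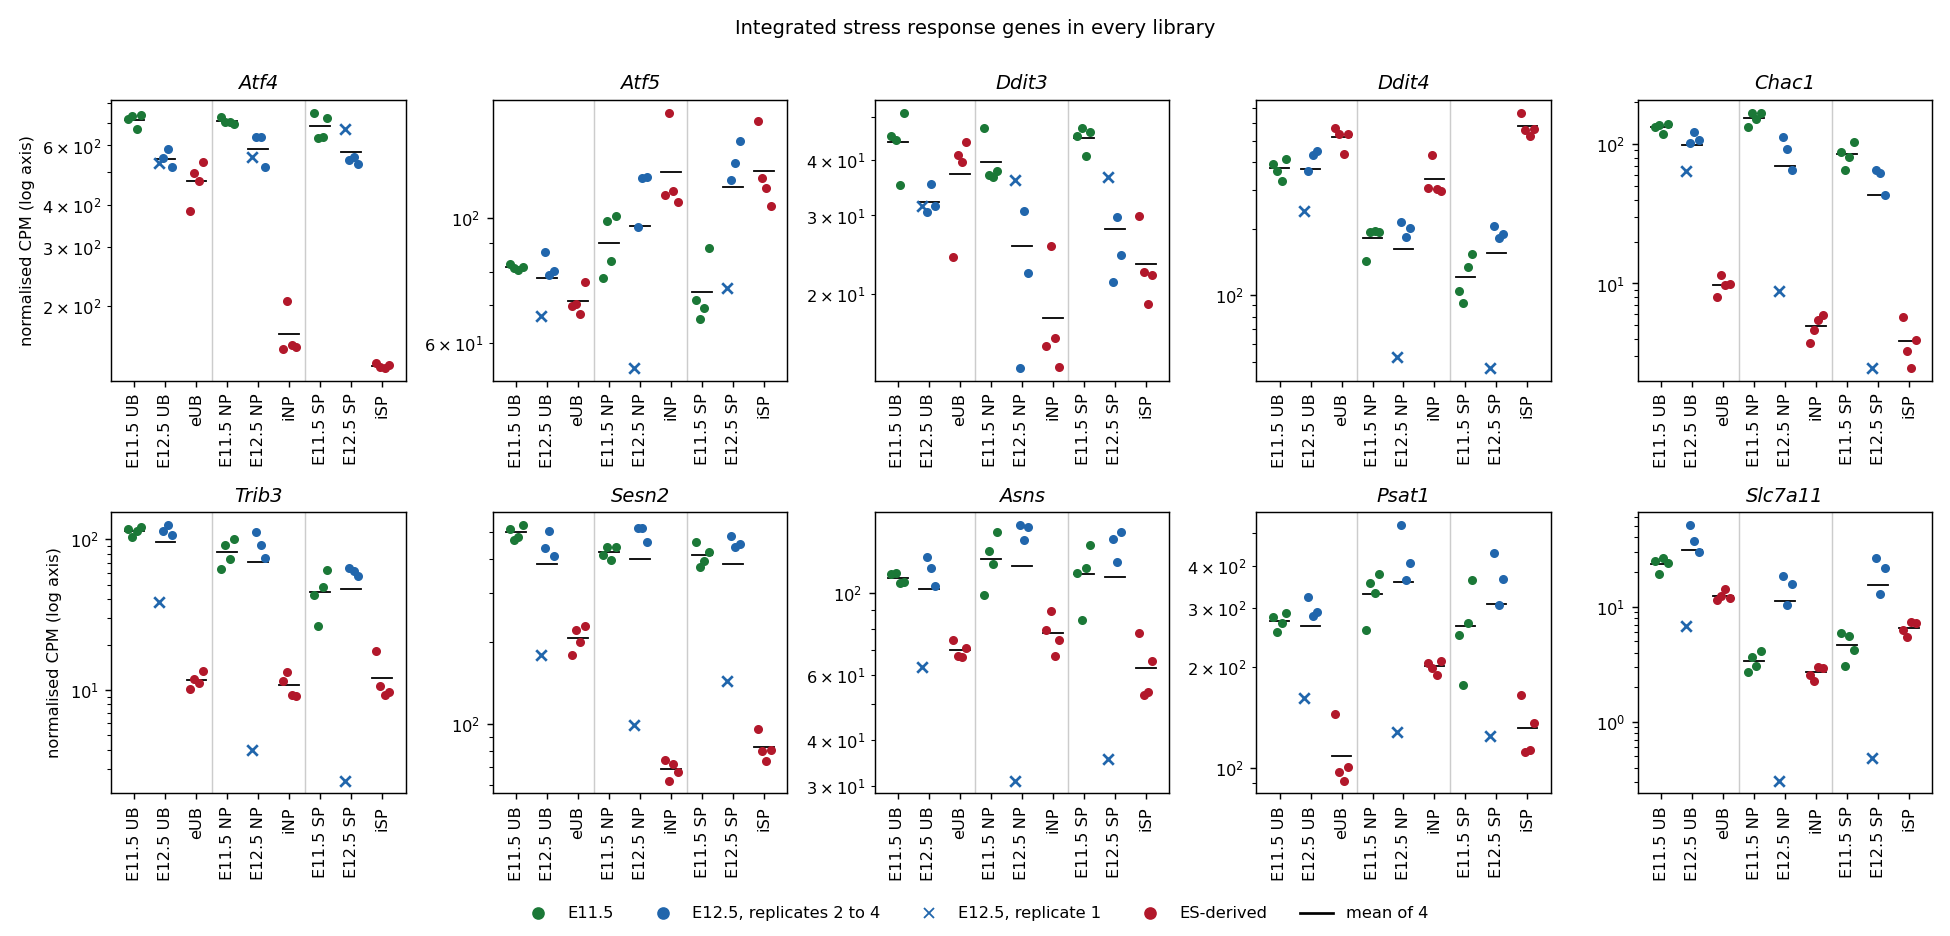
Normalised CPM (log axis) of the 10 genes in all 36 libraries, with a point for each library, a cross for replicate 1 of the E12.5 groups and a bar at the mean of 4. Chac1, Trib3 and Sesn2 lie lower in every ES-derived library than in every E11.5 library of the same cell type, Ddit4 lies higher, and 8 of the genes have their lowest E12.5 values at the crosses.

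The first question was how the response genes differ between ES-derived cells and the same cell type at E11.5. In each cell type 9 of the 10 genes were called: 8 fell and 1 rose in eUB, and 7 fell and 2 rose in iNP and in iSP. A fit that shares 1 estimate of spread among all 36 samples called 5 in eUB (54.9% of all genes), where Atf5, Ddit4, Asns and Slc7a11 lost their calls, 7 in iNP (64.6%), where Asns and Psat1 did, and 9 in iSP (65.7%). Many genes differed in these comparisons, and the share called among all genes tested was 60.5% in eUB, 64.7% in iNP and 67.6% in iSP, with 28.5%, 29.2% and 32.1% called lower. Asns, Atf4, Chac1, Psat1, Sesn2 and Trib3 fell in all 3 cell types and Ddit4 rose in all 3; among all 12780 genes tested in the 3 comparisons, 12.7% fell and 14.8% rose in all 3. The median log2 difference of the 10 genes was -0.76 in eUB, -0.93 in iNP and -0.96 in iSP, against 0.02, 0.07 and 0.04 for all genes.

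Among the regulators, Atf4 (ENSMUSG00000042406, chr15:80255184-80257541, GRCm38, plus strand) was the most abundant of the 10 genes per length in every ex-fetu group, at 304 CPM per kb of exon in E11.5 UB against 213 for Ddit4, the next, and 1.69 for Slc7a11. In E12.5 UB it was 232 against 212 for Ddit4, whereas Ddit4 was the highest in the 3 ES-derived groups. Its values were 732, 707, 704 and 696 CPM in E11.5 NP and 149, 207, 152 and 150.4 in iNP. In SP they were 752, 630.4, 637 and 723 at E11.5 and 135, 132, 131 and 134 in iSP. In UB they were 722, 732, 673 and 739 at E11.5 and 382, 498, 469 and 537 in eUB. The groups did not overlap in any cell type, and eUB lay much closer to its ex-fetu counterpart than iNP and iSP did to theirs. The mean was 4.31-fold lower in iNP (-2.11, SE 0.12, adjusted p = 4.79e-07), 5.16-fold lower in iSP (-2.36, SE 0.08, adjusted p = 4.45e-08) and 1.52-fold lower in eUB (-0.61, SE 0.10, adjusted p = 6.48e-04). The test of the difference between cell types was passed for eUB against iNP (interaction 1.502, adjusted p = 1.43e-08) and for eUB against iSP (1.74, adjusted p = 1.45e-09).

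Atf5 (chr7:44812256-44816658, minus strand), a relative of Atf4 that is also controlled at translation, moved the other way in the mesenchymal cells. It was 90.4 ± 11.1 CPM (SD, n = 4) in E11.5 NP and 120.5 ± 22.3 in iNP (0.40, SE 0.14, adjusted p = 0.0271). The SP values were 73.7 ± 10.02 at E11.5 and 121 ± 19.2 in iSP (0.71, SE 0.13, adjusted p = 8.82e-04). In UB it was 81.6 ± 0.818 at E11.5 and 71.1 ± 4.03 in eUB (-0.20, SE 0.06, adjusted p = 0.0231), a small difference that no longer passed without eUB replicate 2 or 3 or E11.5 UB replicate 1 or 4 (adjusted p = 0.0529 to 0.067). The rise in iNP was lost without E11.5 NP replicate 1 or 3 (adjusted p = 0.0746 and 0.0734). Exons of Atf5 share 82 bases with Nup62 and Il4i1 on the opposite strand, and whether the counting used the strand is not stated, so a small part of its reads may belong to them.

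Ddit3 (chr10:127290774-127296288, plus strand), which encodes CHOP, a partner of ATF4 linked to cell death, was 47.2, 37.1, 36.5 and 37.9 CPM in E11.5 NP and 15.2, 25.5, 15.8 and 13.7 in iNP. It was 45.2, 47.3, 40.9 and 46.3 in E11.5 SP and 30.0, 22.4, 18.9 and 22.0 in iSP. It fell in iNP (-1.16, SE 0.18, adjusted p = 3.49e-04) and in iSP (-0.93, SE 0.13, adjusted p = 1.72e-04) without overlap of the groups. In UB the groups overlapped, at 35.1 to 51.2 CPM at E11.5 and 24.2 to 43.8 in eUB, and the difference did not pass (-0.26, SE 0.18, adjusted p = 0.254). Ddit3 shares 68 exonic bases with Mars and 13 with Gm4189 on the opposite strand, and 105 on its own strand with another annotated gene of the same name.

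Of the 10 genes, Chac1 had the largest log2 difference from E11.5 in each cell type. Chac1 (ENSMUSG00000027313, chr2:119351229-119354381, plus strand), whose enzyme breaks down glutathione, was 132, 138, 119 and 139.8 CPM in E11.5 UB and 8.02, 11.6, 9.75 and 9.84 in eUB. In NP it was 132, 168, 151 and 167 at E11.5 and 3.76, 4.66, 5.48 and 5.99 in iNP. In SP it was 87.3, 65.4, 80.3 and 104 at E11.5 and 5.75, 3.30, 2.47 and 3.95 in iSP. Every ES-derived library lay below every E11.5 library by a wide margin in each cell type. The mean fell 13.5-fold in eUB (-3.63, SE 0.11, adjusted p = 1.43e-08), 31.1-fold in iNP (-4.71, SE 0.14, adjusted p = 1.87e-08) and 21.8-fold in iSP (-4.15, SE 0.21, adjusted p = 3.43e-07).

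Trib3 (chr2:152337422-152344032, minus strand), a pseudokinase induced by ATF4 and CHOP that restrains them in turn, had values of 117, 104, 113 and 120.3 CPM in E11.5 UB and 10.2, 11.8, 11.04 and 13.4 in eUB. It was 63.1, 91.8, 74.4 and 99.9 in E11.5 NP and 11.4, 13.2, 9.20 and 9.15 in iNP. In SP it was 42.4, 26.4, 48.2 and 62.2 at E11.5 and 18.1, 10.7, 9.31 and 9.70 in iSP. The 3 ES-derived groups reached nearly the same level, from 9.15 to 18.1 CPM, while the E11.5 groups differed among themselves. The fall was 9.77-fold in eUB (-3.19, SE 0.09, adjusted p = 1.43e-08), 7.67-fold in iNP (-2.82, SE 0.17, adjusted p = 8.78e-07) and 3.75-fold in iSP (-1.81, SE 0.27, adjusted p = 2.57e-04).

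Sesn2 (chr4:132492032-132510501, minus strand), a sestrin that senses leucine and restrains the growth kinase complex mTORC1, was 515, 468, 482 and 531 CPM in E11.5 UB and 179, 220.3, 199 and 228 in eUB. In NP it was 413, 443, 396 and 441 at E11.5 and 73.9, 62.3, 71.6 and 67.2 in iNP. In SP it was 459.7, 373, 391 and 423 at E11.5 and 96.4, 79.7, 73.7 and 80.3 in iSP. The groups were far apart in all 3 cell types, and eUB again lay above iNP and iSP. The fall was 6.15-fold in iNP (-2.61, SE 0.09, adjusted p = 2.77e-08), 4.99-fold in iSP (-2.31, SE 0.10, adjusted p = 1.90e-07) and 2.42-fold in eUB (-1.27, SE 0.09, adjusted p = 2.21e-06).

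Ddit4 (chr10:59949669-59951834, minus strand), also named Redd1, likewise inhibits mTORC1 but is induced by hypoxia and glucocorticoids as well as by ATF4. It was 105, 92.1, 134 and 154 CPM in E11.5 SP and 671, 561, 524 and 568 in iSP. In NP it was 142, 192, 195 and 194 at E11.5 and 305, 430.3, 302 and 297 in iNP. In UB it was 390.3, 366, 329 and 413 at E11.5 and 572, 537, 434 and 538 in eUB. Unlike the other effectors it was higher in every ES-derived library than in every E11.5 library of its cell type. The rise was 4.80-fold in iSP (2.28, SE 0.16, adjusted p = 2.00e-06), 1.85-fold in iNP (0.87, SE 0.15, adjusted p = 6.44e-04) and 1.39-fold in eUB (0.47, SE 0.11, adjusted p = 0.00330). Of 12 genes induced by hypoxia, 0 lower and 10 higher were called in eUB, 0 lower and 12 higher in iNP and 0 lower and 11 higher in iSP. Their medians were 1.93, 2.43 and 1.98 on the log2 scale. Among them Egln3, an oxygen-sensing enzyme, differed by 4.79 in iNP and 3.65 in iSP (adjusted p = 1.42e-09 and 4.77e-07). Glucocorticoid targets were called as 3 lower and 0 higher of 4 in eUB, 4 lower and 0 higher of 5 in iNP and 2 lower and 0 higher of 5 in iSP. The shares called among all genes were 60.5%, 64.7% and 67.6%. What part oxygen, glucocorticoids or other inducers have in the Ddit4 values was not tested.

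The metabolic targets Asns and Psat1 also fell in all 3 cell types. Asns (chr6:7675169-7693254, minus strand) encodes the asparagine synthetase. Its values were 107 to 113 CPM in E11.5 UB against 66.9 to 74.7 in eUB. They were 98.9 to 146 in E11.5 NP against 67.7 to 89.3 in iNP, and 84.7 to 135 in E11.5 SP against 52.97 to 78.0 in iSP. The ranges did not overlap, and the log2 differences were -0.65, -0.66 and -0.83 (adjusted p = 1.99e-05, 0.00174 and 0.00143). Psat1 (chr19:15904678-15947337, minus strand), an aminotransferase of serine synthesis, was 254 to 289 CPM in E11.5 UB and 91.5 to 145 in eUB (-1.35, SE 0.13, adjusted p = 1.71e-05). It was 258 to 379 in E11.5 NP and 189.6 to 208 in iNP (-0.71, SE 0.12, adjusted p = 6.14e-04). In SP it was 177 to 364 at E11.5 and 111 to 164 in iSP (-0.98, SE 0.21, adjusted p = 0.00223). Both genes were lower in every ES-derived library than in any E11.5 library of the same cell type.

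Slc7a11 (chr3:49892526-50443614, minus strand) encodes xCT, which imports cystine for glutathione synthesis, and passed in a single cell type. It was 24.9, 19.1, 26.3 and 24.1 CPM in E11.5 UB and 11.4, 12.3, 14.1 and 11.9 in eUB (-0.87, SE 0.12, adjusted p = 1.32e-04). The mesenchymal cells held little of it, at 2.69 to 4.14 CPM in E11.5 NP and 2.26 to 2.99 in iNP (-0.24, SE 0.13, adjusted p = 0.143). The SP values were 3.06 to 5.91 at E11.5 and 5.41 to 7.35 in iSP (0.44, SE 0.18, adjusted p = 0.0519). The iSP difference passed without iSP replicate 2 or E11.5 SP replicate 1 or 3 (0.52 to 0.55, adjusted p = 0.025 to 0.0458), and the iNP difference passed after quantile normalisation (-0.65, adjusted p = 0.00241). An annotated transcript of Slc7a11 has 585 bases that are 92.5% identical to the abundant Tuba1b, so its reads could be assigned with less certainty.

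**Figure D2:**
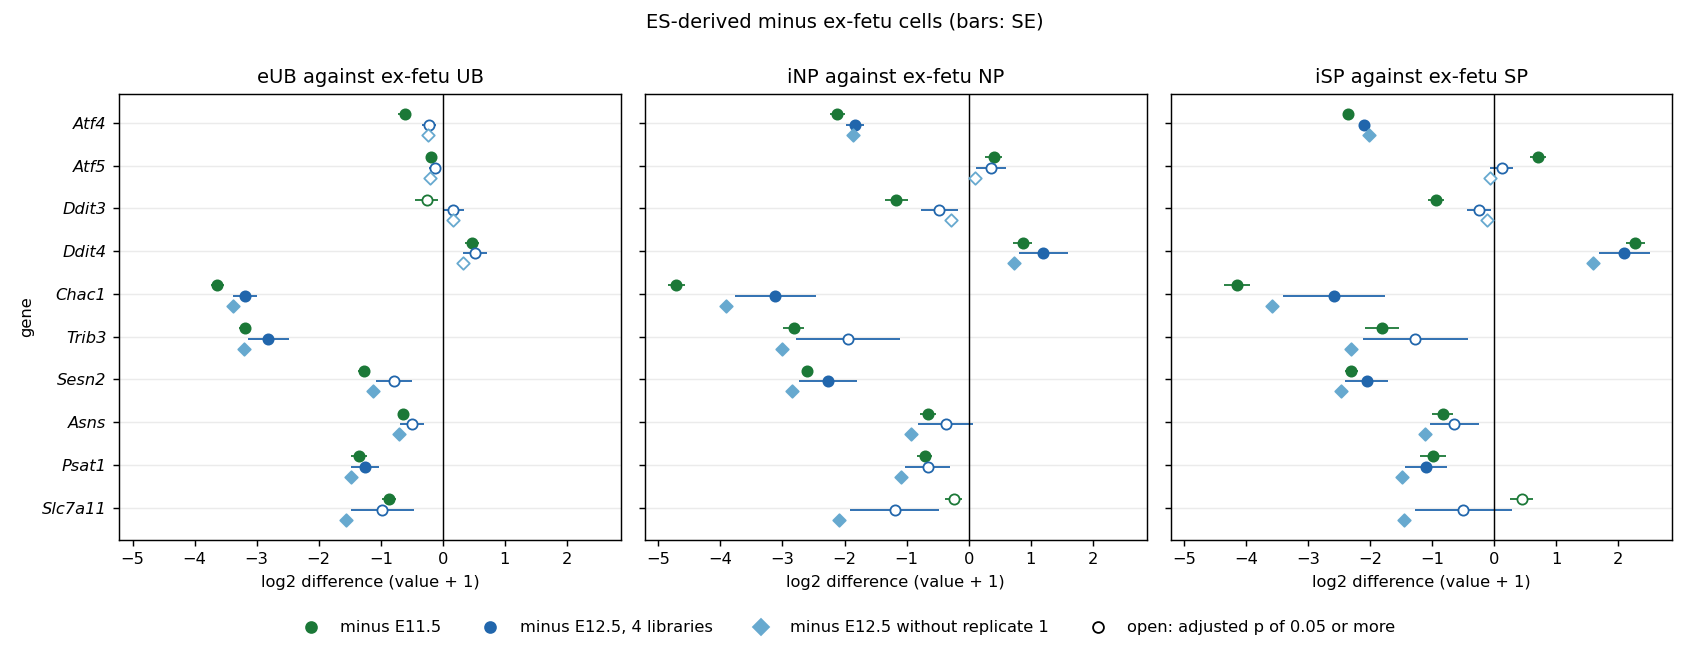
Log2 differences (value + 1) of ES-derived minus ex-fetu cells for the 10 genes, a panel per cell type, with SE bars: green against E11.5, dark blue against E12.5, light blue diamonds against E12.5 without replicate 1 (no bars), filled where adjusted p was below 0.05. Chac1 differs by -3.63 to -4.71 against E11.5, Ddit4 is the member on the right in all panels, and the E12.5 bars are wide in NP and SP.

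Whether the differences from E11.5 were alike in the cell types was tested by interaction terms. In the terms with eUB, cell type cannot be told apart from ES line and differentiation protocol. Comparing eUB with iNP, 7 of the 10 genes were called (47.7% of all genes), comparing eUB with iSP, 7 (45.1%), and comparing iNP with iSP, 3 (31.5%). Sesn2 fell less in eUB than in iNP (interaction 1.33, adjusted p = 2.05e-08) and than in iSP (1.03, adjusted p = 9.38e-07). For Ddit3, which was called lower in iNP and iSP but not called in eUB, these terms were 0.91 (adjusted p = 0.00582) and 0.68 (adjusted p = 0.0353). Chac1 fell less in eUB than in iNP (1.08, adjusted p = 7.05e-04). Trib3 went the other way and fell more in eUB than in iSP (-1.38, adjusted p = 5.48e-04) and more in iNP than in iSP (-1.01, adjusted p = 0.0107). Ddit4 rose more in iSP than in eUB (-1.80, adjusted p = 2.98e-07) or iNP (-1.40, adjusted p = 1.65e-05). Asns had no interaction that passed, with values of 0.01, 0.19 and 0.18. In the fit of all 36 samples 3 genes were called between eUB and iNP (42.4% of all genes), 3 between eUB and iSP (40.2%) and 1 between iNP and iSP (25.9%). There the terms of Trib3 were lost (adjusted p = 0.275 and 0.503), as were Chac1, Atf5, Psat1 and Slc7a11 between eUB and iNP (adjusted p = 0.0558 to 0.615), Sesn2, Ddit3 and Slc7a11 between eUB and iSP (adjusted p = 0.0768 to 0.270) and Slc7a11 between iNP and iSP (adjusted p = 0.651). Without replicate 3 of every group 3 genes were called between eUB and iNP (35.7% of all genes), the terms of Atf5, Ddit3, Psat1 and Slc7a11 then missing the threshold (adjusted p = 0.0526 to 0.146). The Ddit3 term of eUB and iSP was lost without replicate 2, 3 or 4 (adjusted p = 0.111 to 0.253). The Slc7a11 term of eUB and iNP was also lost without replicate 1 or 4 and that of iNP and iSP without replicate 2 or 4 (adjusted p = 0.0679 to 0.159), the Psat1 term without replicate 4 (adjusted p = 0.0724), and the Chac1 term of eUB and iSP passed without replicate 1 (0.75, adjusted p = 0.0126).

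Upstream of ATF4, the kinases of eIF2 did not move together. Of the 15 genes tested for kinases, eIF2, its exchange factor eIF2B and its phosphatase, 6 lower and 2 higher were called in eUB, 8 lower and 2 higher in iNP and 9 lower and 3 higher in iSP. The shares of all genes called were 60.5%, 64.7% and 67.6%, with 28.5%, 29.2% and 32.1% called lower. Eif2ak1, the haem-regulated kinase HRI, fell in all 3 cell types (log2 differences -0.34, -0.84 and -0.55 in eUB, iNP and iSP). Eif2ak3, the ER kinase PERK, fell in eUB (-0.40) and iSP (-0.54) and rose in iNP (0.71). Eif2ak2 (PKR) and Eif2ak4 (the amino acid sensor GCN2) passed in none of the 3, with differences from -0.14 to 0.37. The eIF2B subunit Eif2b2 differed by -0.77, -1.28 and -1.28, and Oma1, the mitochondrial protease that signals to HRI, rose by 0.59, 1.01 and 0.92. Ppp1r15a, the stress-induced phosphatase subunit GADD34 that ends the response, fell in iNP (-1.28) and iSP (-2.03) and differed by -0.28 in eUB (adjusted p = 0.326).

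Among other genes linked to ATF4, amino acid transporters fell in all 3 cell types: of 10 tested, 9 lower and 1 higher in eUB, 8 lower and 0 higher in iNP and 8 lower and 1 higher in iSP, and 8 fell in all 3. For all genes, 60.5%, 64.7% and 67.6% were called in eUB, iNP and iSP, with 28.5%, 29.2% and 32.1% lower, and 12.7% fell in all 3. Slc7a1, which imports arginine and lysine, differed by -2.58, -2.61 and -2.66, and Slc7a5, the large neutral amino acid transporter, by -2.12 in eUB and -1.999 in iSP. Of 20 cytosolic aminoacyl-tRNA synthetases, 14 lower and 4 higher were called in eUB, 9 lower and 2 higher in iNP and 8 lower and 6 higher in iSP. Cars, which charges the cysteine tRNA, differed by -1.27, -1.35 and -1.45, while Vars, which charges the valine tRNA, rose by 0.30, 0.36 and 1.03. The 13 genes of amino acid and one-carbon synthesis were split, with 7 lower and 2 higher in eUB, 3 lower and 5 higher in iNP and 2 lower and 7 higher in iSP. Mthfd2, a mitochondrial folate enzyme, differed by -1.64, -2.46 and -2.29, and Mthfd1l, of the same folate pathway, rose by 0.76, 0.63 and 1.17.

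Atf3, an early stress factor induced by ATF4 and by other signals, fell in iNP and iSP and did not pass in eUB. It was 100.1, 57.7, 67.1 and 59.7 CPM in E11.5 NP and 3.83, 4.46, 3.08 and 3.16 in iNP. In SP it was 214, 209, 148 and 142 at E11.5 and 3.09, 2.47, 2.73 and 3.21 in iSP. In UB the groups overlapped, at 281, 357, 174 and 342 CPM at E11.5 and 281, 429, 449 and 578 in eUB. The log2 differences were -3.94 in iNP, -5.51 in iSP and 0.60 in eUB (adjusted p = 1.79e-07, 1.75e-08 and 0.0703). Of the list of 15 other ATF4 partners and induced regulators, 7 lower and 4 higher of 14 tested were called in eUB, 8 lower and 6 higher of 15 in iNP and 7 lower and 4 higher of 14 in iSP. The shares of all genes called were 60.5%, 64.7% and 67.6%, with 28.5%, 29.2% and 32.1% lower. Jdp2, a repressor related to Atf3, fell in all 3 (-3.16, -3.38 and -3.73), and Gdf15, a stress cytokine, rose in eUB (1.67) and fell in iNP (-1.97) and iSP (-1.66).

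Genes of related stress pathways moved in part with the 10 genes and in part the other way, as NRF2 and p53 targets did in eUB. In eUB, iNP and iSP 60.5%, 64.7% and 67.6% of all genes were called, with 28.5%, 29.2% and 32.1% lower, and some counts below lie near these shares. Of 18 ER chaperones and genes of the IRE1 and ATF6 arms, 10 lower and 3 higher were called in eUB, 10 lower and 3 higher in iNP and 16 lower and 1 higher in iSP. The chaperone Hspa5 (BiP) and the degradation factor Herpud1 each fell in all 3 cell types. The Hspa5 difference was -0.71 in eUB, and those of Herpud1 were -2.71 in iNP and -1.98 in iSP. Targets of NRF2, the antioxidant factor that also acts on Slc7a11, were called as 2 lower and 8 higher of 10 in eUB, 2 lower and 4 higher of 9 in iNP and 6 lower and 2 higher of 10 in iSP. For p53 targets the counts were 0 lower and 10 higher of 11 in eUB, 6 lower and 2 higher in iNP and 7 lower and 2 higher in iSP. Immediate early and dissociation genes were called as 1 lower and 8 higher of 11 in eUB, 4 lower and 6 higher in iNP and 5 lower and 4 higher in iSP. Among these the heat shock gene Hspa1a was 37.1, 13.3, 28.3 and 19.04 CPM in E11.5 NP and 0.633, 0.590, 0.498 and 0.797 in iNP. It was 103, 112, 149.6 and 121 in E11.5 SP and 0.773, 1.29, 0.665 and 0.912 in iSP, and 183, 182, 165 and 188 in E11.5 UB and 16.9, 68.4, 101 and 162 in eUB. These values move with origin, and their part in the differences of the 10 genes was not tested.

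**Figure D3:**
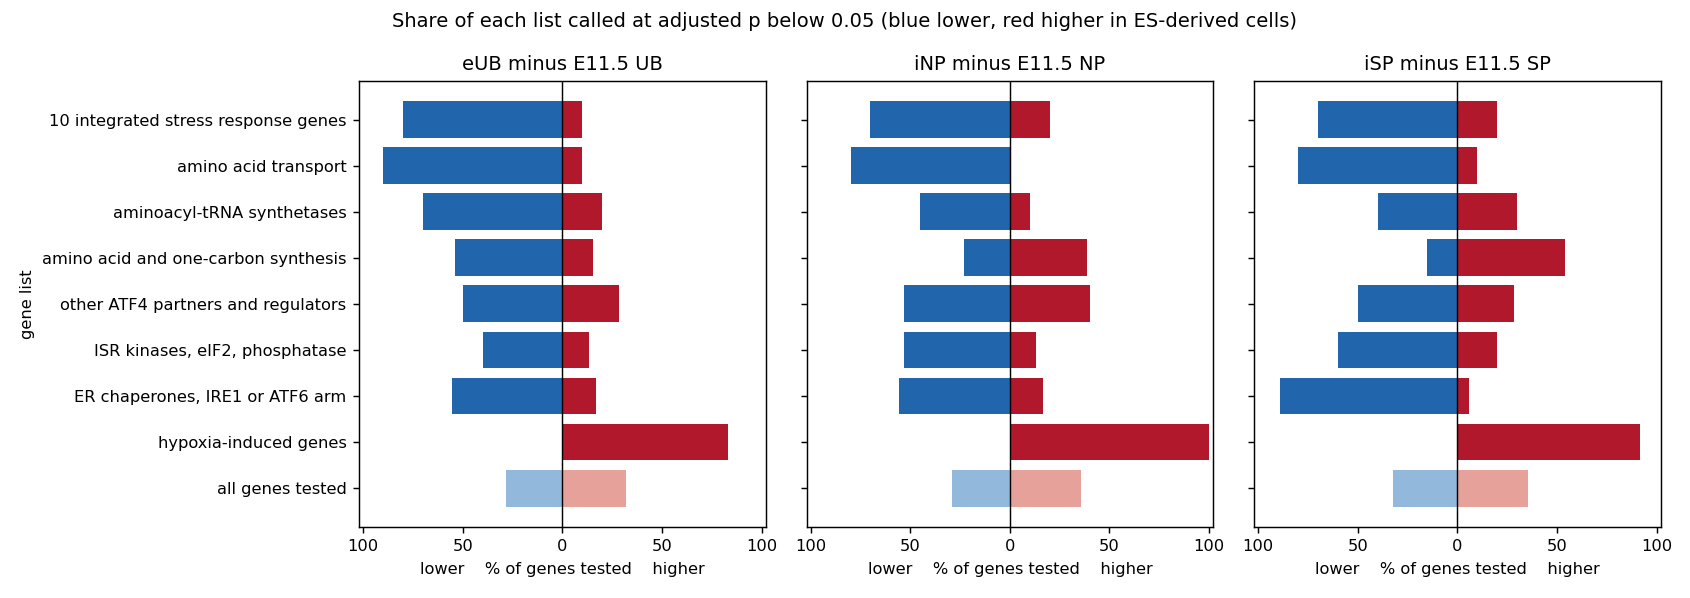
Share of the genes tested in each list that was called lower (blue, left) or higher (red, right) in ES-derived than in E11.5 cells, a panel per cell type, with all genes tested in the bottom row. The 10 response genes and the amino acid transporters are mostly on the left in all panels and the hypoxia-induced genes on the right.

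The same ES-derived libraries were compared with the E12.5 cells, so these comparisons are not independent of those with E11.5. With all 4 libraries, 3 of the 10 genes were called in eUB (44.4% of all genes), 4 in iNP (44.3%) and 5 in iSP (62.1%). Without E12.5 replicate 1 the counts were 6 in eUB (51.5%), 8 in iNP (43.4%) and 8 in iSP (69.9%), so that single libraries decided the calls of up to 4 genes. Chac1 passed in all 3 cell types with the 4 libraries, at -3.18 in eUB, -3.11 in iNP and -2.58 in iSP (adjusted p = 8.07e-06, 0.00346 and 0.0214), though in iSP not without iSP replicate 3 or E12.5 SP replicate 2, 3 or 4 (adjusted p = 0.0538 to 0.0646). Without replicate 1 its differences were -3.37, -3.91 and -3.59 (adjusted p = 7.50e-07, 3.48e-06 and 3.23e-07).

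Atf4 was lower in iNP (-1.83, SE 0.14, adjusted p = 7.26e-06) and iSP (-2.10, SE 0.09, adjusted p = 1.47e-07) than at E12.5, also without replicate 1 (-1.86 and -2.02). The E12.5 values were 554, 634, 638 and 519 CPM in NP and 671, 542, 555 and 529 in SP. Its difference in eUB did not pass (-0.22, SE 0.11, adjusted p = 0.132; -0.24, adjusted p = 0.137, without replicate 1), with E12.5 UB at 530.4, 552, 585 and 518. Sesn2 fell in iNP (-2.27, SE 0.46, adjusted p = 0.00316) and iSP (-2.05, SE 0.35, adjusted p = 6.70e-04), by -2.85 and -2.47 without replicate 1, and in eUB it passed only without replicate 1 (-1.12, adjusted p = 8.42e-05, against -0.79 and 0.0519 with it). Trib3 passed in eUB (-2.82, SE 0.33, adjusted p = 2.36e-04, and -3.20 without replicate 1), and in iNP and iSP it passed without replicate 1 (-3.001 and -2.31, adjusted p = 6.63e-06 and 2.73e-06) but not with it (adjusted p = 0.0842 and 0.216).

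Asns and Slc7a11 passed in no cell type with all 4 E12.5 libraries and in all 3 without replicate 1. The Asns differences without it were -0.71 in eUB, -0.92 in iNP and -1.12 in iSP, and those of Slc7a11 -1.56, -2.08 and -1.45. Psat1 fell in eUB (-1.26, SE 0.23, adjusted p = 0.00219) and iSP (-1.10, SE 0.34, adjusted p = 0.0181, not without E12.5 SP replicate 4, adjusted p = 0.052), and in iNP without replicate 1 (-1.09, adjusted p = 4.69e-04). Without replicate 1 its differences in eUB and iSP were -1.48 and -1.49. Ddit4 rose in iSP (2.09, SE 0.41, adjusted p = 0.00166) and in iNP (1.20, SE 0.40, adjusted p = 0.0325). The iNP rise lost its call when any single iNP library was left out (adjusted p = 0.0565 to 0.0812) but was 0.73 with adjusted p = 0.00631 without E12.5 NP replicate 1, and the iSP rise was then 1.59. In eUB, Ddit4 did not pass (0.52, SE 0.19, adjusted p = 0.0559; 0.32, adjusted p = 0.0506, without replicate 1), though it did when E12.5 UB replicate 4 was left out (0.63, adjusted p = 0.0439). Ddit3 and Atf5 passed in none of the 3 with all libraries or without E12.5 replicate 1. In eUB, iNP and iSP the Ddit3 differences were 0.17, -0.47 and -0.25 with all libraries and 0.16, -0.29 and -0.11 without it (adjusted p = 0.515, 0.451 and 0.537). Those of Atf5 were -0.13, 0.36 and 0.12, and -0.20, 0.11 and -0.07 without it (adjusted p = 0.0513, 0.604 and 0.606). With other libraries left out, Ddit3 passed without eUB replicate 1 in UB (0.36, adjusted p = 0.00572) and without E12.5 NP replicate 2 in NP (-0.74, adjusted p = 0.0344).

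Of all genes, 21.2%, 18.7% and 28.8% were called lower than at E12.5 in eUB, iNP and iSP and 23.3%, 25.6% and 33.3% higher. Without E12.5 replicate 1 the shares were 24.2%, 18.5% and 32.6% lower and 27.3%, 24.9% and 37.3% higher. Of the 10 amino acid transporters, 8 lower and 0 higher were called in eUB, 7 lower and 0 higher in iNP and 7 lower and 1 higher in iSP, and 8 lower and 1 higher, 8 lower and 0 higher and 8 lower and 2 higher without replicate 1. Of the 20 synthetases, 11 lower and 3 higher were called in eUB, 7 lower and 0 higher in iNP and 5 lower and 4 higher in iSP, and 14 lower and 4 higher, 9 lower and 0 higher and 10 lower and 3 higher without replicate 1. Of the 18 ER chaperones and related genes, 4 lower and 2 higher were called in eUB, 8 lower and 0 higher in iNP and 16 lower and 0 higher in iSP, and 8 lower and 2 higher, 7 lower and 0 higher and 16 lower and 1 higher without it. Of the 12 hypoxia-induced genes, 1 lower and 8 higher were called in eUB, 0 lower and 10 higher in iNP and 0 lower and 11 higher in iSP, and 1 lower and 8 higher, 0 lower and 10 higher and 1 lower and 11 higher without it.

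The E12.5 libraries numbered 1 differed from the others of their group in most of the 10 genes. Trib3 was 4.001 CPM in replicate 1 and 74.9 to 113 in replicates 2 to 4 of E12.5 NP. It was 2.49 and 57.2 to 64.8 in SP, and 38.6 and 107 to 124 in UB. Chac1 was 8.80 against 65.3 to 112 in NP, 2.49 against 43.2 to 65.6 in SP and 64.3 against 101.7 to 122 in UB. Slc7a11 was 0.308 (10 reads) against 10.4 to 18.6 in NP, 0.488 (9 reads) against 12.9 to 26.4 in SP and 6.75 against 30.0 to 51.1 in UB. The Trib3 values of NP and SP replicate 1 lay below every iNP and iSP library, and the Chac1 value lay within the iSP range in SP and above every iNP library in NP. The UB library departed least in all 3 genes.

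Sesn2 was 99.5 against 461 to 520.0 CPM in NP, 144 against 442 to 486 in SP and 178 against 410.3 to 503 in UB. Asns was 31.0 against 139 to 153 in NP, 35.6 against 121 to 146 in SP and 63.2 against 105 to 124.9 in UB. Psat1, Ddit4 and Atf5 were also lowest in replicate 1 in all 3 cell types, with Ddit4 at 52.6 against 182 to 214 CPM in NP. The regulators Atf4 and Ddit3 did not share this: Atf4 was 671 against 529 to 555 CPM in SP, and Ddit3 36.1 against 13.6 to 30.6 in NP and 36.7 against 21.3 to 29.7 in SP, its highest in both. Of all 14543 genes measured at E12.5, 13.4% were lowest and 8.32% highest in replicate 1 in all 3 cell types. No other replicate number at E11.5, at E12.5 or among the ES-derived libraries was lowest in all 3 for more than 1 of the 10 genes.

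In these libraries 14 of 20 synthetases, 7 of 13 synthesis genes, 6 of 10 transporters and 11 of 15 other partners and induced regulators linked to ATF4 were likewise lowest in all 3 cell types. Of those 15, Atf3 and Nfil3 were highest there, as were Eif2ak3 and Hspa1a: Hspa1a was 194, 1.10, 1.177 and 1.183 CPM in the 4 E12.5 NP libraries, 512, 7.32, 6.65 and 7.16 in SP and 43.2, 5.59, 6.17 and 7.73 in UB, in each with replicate 1 named first. Hspa1a was among 6 of 11 immediate early and dissociation genes highest in replicate 1 in all 3 cell types, against 8.32% of all genes. Hspa5 in replicate 1 was above the others in NP (1936, 957, 895 and 875) and SP (3695, 1242, 1151 and 1227) and not in UB (1358, 1465, 1640.1 and 1467). Ppp1r15a followed Hspa5, at 233, 49.6, 139 and 106 in NP and 439.8, 89.5, 129.6 and 129 in SP against 124.6, 130.2, 138 and 146 in UB. Storage time, litter or sorting day were not given for single libraries, and their part was not tested.

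**Figure D4:**
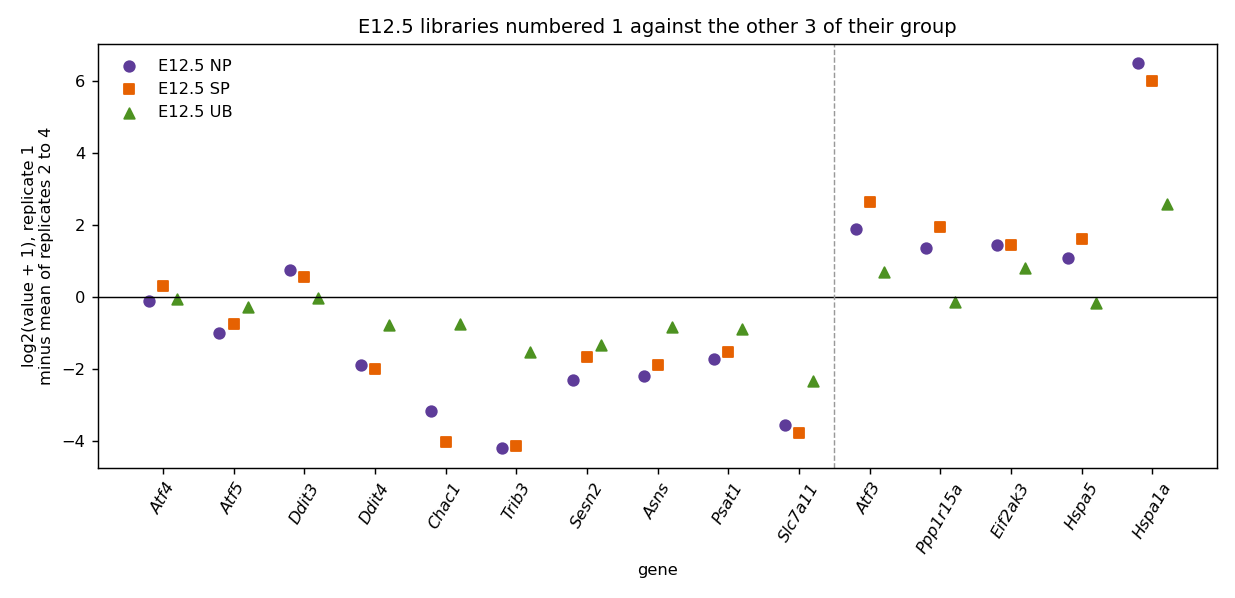
Log2(value + 1) of E12.5 replicate 1 minus the mean of replicates 2 to 4 for the 10 genes and, right of the dashed line, 5 other stress genes, with a symbol per cell type. Chac1, Trib3 and Slc7a11 lie between -0.77 and -4.22, Atf4 between -0.10 and 0.31, and Hspa1a between 2.57 and 6.50.

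Between the stages, E12.5 against E11.5, 2 of the 10 genes were called in UB (26.5% of all genes), 0 in NP (6.34%) and 1 in SP (8.52%), near the shares of all genes. In NP the lowest adjusted p by limma was 0.108, for Atf4. Of the 10 genes, 3 had an unadjusted p below 0.05 in NP, DESeq2 on the recovered reads called 1 (Atf4) and edgeR 0. Without E12.5 replicate 1 the counts were 4 in UB (44%), 3 in NP (17%) and 4 in SP (21.5%). In the fit of all 36 samples they were 1 in UB (18.1%, Atf4), 1 in NP (11.4%, Ddit3) and 2 in SP (21.9%, Atf5 and Ddit3). Atf4 was lower at E12.5 in UB (-0.39, SE 0.06, adjusted p = 0.00237), and Ddit3 in UB (-0.43, SE 0.11, adjusted p = 0.0199) and SP (-0.69, SE 0.17, adjusted p = 0.0346). The Ddit3 calls with all libraries were not stable: in UB they were lost without E12.5 UB replicate 2 or 4 or E11.5 UB replicate 1, 2 or 4 (adjusted p = 0.0504 to 0.0608), and in SP without any single library other than E12.5 replicate 1 (adjusted p = 0.0529 to 0.122). Slc7a11 rose between the stages in all 3 cell types when replicate 1 was left out, by 0.70 in UB, 1.85 in NP and 1.89 in SP (adjusted p = 0.00274, 0.00145 and 0.00252), and in none with it. Chac1 then fell in UB (-0.26) and NP (-0.80), Ddit3 in NP as well (-0.88), and Atf5 and Ddit4 rose in SP (0.78 and 0.68). Atf4 in UB (-0.38) and Ddit3 in UB (-0.42) and SP (-0.82) remained called without it. Atf4 passed in NP without E12.5 NP replicate 2 (-0.32, adjusted p = 0.0471), and Chac1 in UB without E12.5 UB replicate 3 (-0.56, adjusted p = 0.0456).

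Among the cell types, UB cells carried the highest Slc7a11 and Ddit4 levels at E11.5. Comparing UB with NP at E11.5, 6 of the 10 genes were called (60.2% of all genes), UB with SP, 5 (53.6%), and NP with SP, 3 (43.1%). In the fit of all 36 samples 2, 2 and 0 were called (46.7%, 52.8% and 42.4% of all genes), Ddit4 and Slc7a11 against both NP and SP, so that the calls of Trib3, Chac1, Sesn2 and Psat1 given next were lost. Slc7a11 was 7.0-fold higher in UB than in NP (2.49, SE 0.13, adjusted p = 9.20e-09) and Ddit4 2.07-fold higher (1.05, SE 0.11, adjusted p = 2.93e-06). Trib3 was highest in UB and lowest in SP (UB minus SP 1.38, SE 0.21, adjusted p = 2.78e-04, NP minus SP 0.90, SE 0.24, adjusted p = 0.0137), and Chac1 was lowest in SP (UB minus SP 0.66, SE 0.13, adjusted p = 0.00163, NP minus SP 0.88, SE 0.14, adjusted p = 8.71e-04). The Chac1, Psat1 and Sesn2 differences between UB and NP were small (-0.22, -0.26 and 0.24), and those of Chac1 and Psat1 were lost without E11.5 UB replicate 1, 2 or 3 or NP replicate 2, 3 or 4, that of Psat1 also without UB replicate 4 (adjusted p = 0.0554 to 0.135). The Ddit4 difference of NP and SP was lost without E11.5 NP replicate 2, 3 or 4 or SP replicate 1 (adjusted p = 0.0514 to 0.0575), and the Sesn2 difference of UB and SP without UB replicate 1 or 4 or SP replicate 2 or 3 (adjusted p = 0.0573 to 0.081). Leaving out E11.5 NP replicate 1 or SP replicate 4 raised the count between NP and SP to 5 in each case (40% and 46.7% of all genes), with Atf5 and either Ddit3 or Psat1 in addition. Atf5 then passed also against UB in each case (-0.20 against NP and 0.24 against SP), Asns passed between UB and NP without NP replicate 1 (-0.26, adjusted p = 0.00525), and Slc7a11 between NP and SP without SP replicate 2 (-0.51, adjusted p = 0.0401). Atf4 and Asns did not pass between any of the 3 cell types at E11.5 with all libraries, with Atf4 differences of 0.01 to 0.07.

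The ES-derived cell types were also compared with each other, although eUB differ from iNP and iSP in ES line and differentiation protocol as well. Comparing eUB with iNP, 8 of the 10 genes were called (52.2% of all genes), eUB with iSP, 6 (64.7%), and iNP with iSP, 3 (30.7%). In the fit of all 36 samples these were 6 (58.2%), where Ddit4 and Chac1 lost their calls, 4 (59.5%), where Chac1 and Slc7a11 did, and 1 (28.7%), Atf4 in place of the 3. Atf4 was 2.86-fold higher in eUB than in iNP and 3.55-fold higher than in iSP (1.51 and 1.81 on the log2 scale), and Sesn2 3.0-fold and 2.5-fold higher. Atf5 was lower in eUB than in either (-0.74 and -0.75), and Chac1 (0.86 and 1.182), Slc7a11 (1.87 and 0.83) and Ddit3 (1.05 and 0.64) were higher. Ddit4 was higher (0.65) and Psat1 lower (-0.90) in eUB than in iNP. Ddit4, Psat1 and Slc7a11 separated iNP from iSP, at -0.81, 0.63 and -1.04. Without iNP replicate 2, whose Atf4, Atf5 and Ddit4 values stood above the other 3 libraries, 5 genes were called between iNP and iSP (43.8% of all genes), Atf4 and Ddit3 in addition (0.18 and -0.59, adjusted p = 0.0082 and 0.0032). Trib3 did not differ beyond its spread between any 2 of the 3 ES-derived types (adjusted p = 0.532, 0.989 and 0.722), with differences of -0.11 to 0.11. The eUB and iSP difference of Ddit3 (0.64) was lost without eUB replicate 2 or 4 or iSP replicate 3 (adjusted p = 0.0532 to 0.0536). Without iSP replicate 1, Asns passed against iNP (0.43, adjusted p = 0.0349) and against eUB (0.28, adjusted p = 0.0298), and without eUB replicate 1, Psat1 passed between eUB and iSP (-0.42, adjusted p = 0.007).

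At E12.5, 0 of the 10 genes were called between NP and SP (34.8% of all genes), 1 between UB and NP (32.7%) and 2 between UB and SP (46.4%). Between NP and SP, 0 of the 10 had an unadjusted p below 0.05 by limma, and edgeR and DESeq2 each called 0. Libraries of NP and SP with the same number deviated together at this stage. In the fit that pairs them by this number (a replicate block), 4 genes passed between them (57.8% of all genes): Chac1 (0.85, adjusted p = 0.00310) and Trib3 (0.57, adjusted p = 0.00147) were higher in NP, and Atf5 (-0.26, adjusted p = 0.0266) and Slc7a11 (-0.35, adjusted p = 0.0249) higher in SP. Without replicate 1 of both groups, a choice made after seeing the data, the counts without a block were 1 for NP and SP (40.2%), 5 for UB and NP (39.3%) and 6 for UB and SP (56.7%). Ddit4 was higher in UB than in NP (1.33, SE 0.43, adjusted p = 0.0395; without replicate 1 of both 1.05, adjusted p = 2.21e-04) and than in SP (1.41, SE 0.45, adjusted p = 0.0281; 1.11, adjusted p = 5.35e-06). With all libraries the Ddit4 calls were lost without E12.5 UB replicate 2, 3 or 4 (adjusted p = 0.0661 to 0.115) and, against NP, without NP replicate 3 (adjusted p = 0.0563), and the Atf5 call of UB against SP (-0.50, SE 0.18, adjusted p = 0.0488) without any library but SP replicate 1 (adjusted p = 0.0702 to 0.13).

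Across the 9 groups, mean levels ran from 716 ± 29.9 CPM (SD, n = 4) in E11.5 UB to 133 ± 2.12 in iSP for Atf4. They ran from 154 ± 17.1 in E11.5 NP to 3.87 ± 1.39 in iSP for Chac1. The range was from 499 ± 28.9 in E11.5 UB to 68.7 ± 5.14 in iNP for Sesn2, and from 581 ± 62.9 in iSP to 121 ± 27.8 in E11.5 SP for Ddit4. Most neighbours in these orders overlapped in their values: 6 of 8 neighbouring pairs for Atf4, Sesn2 and Ddit4, 7 of 8 for Chac1, Trib3 and Psat1, and 8 of 8 for Atf5, Ddit3, Asns and Slc7a11. Among the 45 pairs of members, Pearson's r over the 36 libraries on the log2 scale ranged from -0.57 (Atf5 and Ddit3) to 0.94 (Chac1 and Trib3), with a median of 0.45, and 8 pairs were above 0.8. These points share their groups and the E12.5 libraries numbered 1, and r is given as a description.

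The genes most like each member, by Pearson's r over the same 36 libraries among 14220 genes with a mean of at least 1 CPM, fell in part in the pathway lists. Sesn2 was most like Aars (0.97), Clint1 (0.96) and Mthfd2 (0.96), and Chac1 most like Slc7a1 (0.96), Tpm3-rs7 (0.94) and Mthfd2 (0.94). Trib3 was most like Slc7a3 (0.95), Chac1 (0.94) and Nars (0.93), Asns most like Slc7a3 (0.92), Arl14ep (0.91) and Eif4ebp1 (0.90), and Psat1 most like Slc7a5 (0.92), Xpot (0.90) and Crk (0.89). For Slc7a11 they were Lnx2 (0.87), Ammecr1 (0.87) and Psph (0.87), and for Atf5 Sars (0.82), Otub2 (0.80) and Nelfcd (0.79). The patterns of Atf4, Ddit3 and Ddit4 were closest to genes of other kinds, with Trp53 (0.97), CAAA01147332.1 (0.97) and Peg13 (0.96) for Atf4, Tmem87a (0.90), 5430416N02Rik (0.86) and Gadd45b (0.86) for Ddit3 and Poglut1 (0.93), AW209491 (0.90) and Mlec (0.89) for Ddit4.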

How the data were processed

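RNA of sorted cells was sequenced as stranded, paired-end mRNA libraries from 36 samples in 9 groups of 4. Per the labels, the submitters' processing notes name cutadapt and STAR, and the genome is written as GRCh38 although the gene identifiers are mouse; the counting program, its use of strand and the annotation release are not given in the sources used here. The deposited values are a normalised signal, counts scaled to library size (CPM) after the authors' edgeR normalisation, for 22761 genes; 22649 identifiers are in GENCODE vM21 (GRCm38), which gave positions. In each library all values were whole multiples of 1 read's worth (tolerance 0.1), so reads were recovered. The authors also deposited the same values with group means and their own fold changes and p-values, which were not used.

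The 10 members and all gene lists were chosen with earlier results of these data known. Genes at 1 or more in at least 4 samples of a comparison were fitted with limma 3.58.1 (trend) on log2(value + 1) in R 4.3.3, with Benjamini-Hochberg adjustment over all genes tested and a threshold of 0.05; the method was tested on simulated data. Only the groups compared entered a fit, and the interaction terms used the ES-derived and E11.5 groups together. Within a cell type, samples are separate pools or differentiation batches, and p-values measure the spread between them; NP, SP and UB samples may come from the same pooled kidneys and iNP and iSP from the same culture, so samples of different cell types need not be independent. Alternatives were edgeR 4.0.16 (quasi-likelihood) and DESeq2 1.42.0 on recovered reads, pseudocount 0.1, no filter or a filter of 5, quantile and upper-quartile scaling, a fit of all samples, the replicate number as a block, and each library left out; alternatives without E12.5 replicate 1 were chosen after seeing the data. Same-numbered libraries deviated together, with every correlation of deviations over 0.1, in E12.5 NP against SP only (0.54 to 0.70 over genes); the labels do not say that a number is a shared litter or day.

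All members, every kinase list gene and Atf3 could be named, with up to 3 genes per direction of each other list by size of the called difference from E11.5, and the 3 genes most like each member. Marker genes named with their levels were chosen after their values were seen. Of the listed genes, Dele1 and Hba-a2 had no match in the table. Some lists share genes, as do the other ATF4 partners with the hypoxia-induced genes and the amino acid transporters with the NRF2 targets. Counts of such lists are not independent. Promoters are RefSeq, GRCm38.p6, and near copies were searched with BLAST 2.17.0.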

Additional observations from a re-analysis of the deposited data

Results flagged for a closer look

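In 12 of the 90 sets of 4 values (10 genes in 9 groups) the highest or lowest library stood far from the other 3 by Dixon's test, where chance alone gives about 4.5, as 1 set in 20 is picked by chance. The E12.5 libraries numbered 1 gave 5 of the 12, all as the lowest value: in SP, Ddit4 at 46.7 CPM, Trib3 at 2.49 and Sesn2 at 144, and in NP, Sesn2 at 99.5 and Asns at 31.0. Replicate 2 of iNP gave 3 as the highest value, with Atf4 at 207, Atf5 at 154 and Ddit4 at 430.3 CPM. Replicate 1 of E11.5 NP had the highest Ddit3 (47.2) and the lowest Ddit4 (142) of its group. The others were the highest Trib3 in iSP replicate 1 (18.1) and the highest Psat1 in eUB replicate 1 (145).

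In 17 of 30 tests of an interaction the difference of ES-derived from E11.5 cells was not the same in 2 cell types (limma, adjusted p below 0.05), and 7 of the 17 were called also in the fit of all 36 samples. Of all genes, 47.7% were called for UB minus NP, 45.1% for UB minus SP and 31.5% for NP minus SP. For UB minus NP the interaction terms on the log2 scale were 1.502 for Atf4, -0.60 for Atf5, 0.91 for Ddit3, 1.08 for Chac1, 1.33 for Sesn2, -0.64 for Psat1 and -0.63 for Slc7a11. For UB minus SP they were 1.74 for Atf4, -0.90 for Atf5, 0.68 for Ddit3, -1.80 for Ddit4, -1.38 for Trib3, 1.03 for Sesn2 and -1.31 for Slc7a11. For NP minus SP they were -1.40 for Ddit4, -1.01 for Trib3 and -0.68 for Slc7a11.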

How the results depend on the processing

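Over 3385 values of single members under the alternatives, 3128 stayed on the same side of the threshold, 131 lost a call, 126 gained one and 0 called values reversed, while 137 values that were not called changed sign. In the differences from E11.5, 488 of 509 stayed on the same side, 15 lost a call and 6 gained one, and the count of 9 called members held in iNP and iSP under all alternatives within 1.5 times. The fit of all 36 samples, which shares 1 estimate of spread with the E12.5 groups, called 5 in eUB minus E11.5 UB (54.9% of all genes), 1, 1 and 2 between the stages of UB, NP and SP (18.1%, 11.4% and 21.9%), 1 in iNP minus iSP (28.7%), 0, 2 and 2 in E11.5 NP minus SP, UB minus NP and UB minus SP (42.4%, 46.7% and 52.8%), 2 in E12.5 UB minus NP (42.1%), and 3, 3 and 1 by interaction (42.4%, 40.2% and 25.9%). Against E12.5, eUB had 5 members called with quantile scaling (43.2% of all genes), 5 with upper-quartile scaling (43.7%), 6 with edgeR (44.1%) and 7 with DESeq2 (49.4%), and iNP had 7 with DESeq2 (50.4%). Between the stages of SP, upper-quartile scaling, edgeR and the block each left 0 (8.46%, 8.35% and 5.77% of all genes) and DESeq2 called 2 (15.4%), and between those of NP, DESeq2 called 1 (14.3%). At E12.5, UB minus NP had 0 without a filter (23.4%), and UB minus SP had 1 without a filter (33.1%) and 1 with a filter of 5 (46.9%).

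With the replicate number as a block, 1 member was called between the stages of UB (17.2% of all genes), 2 in E12.5 UB minus NP (31%), 5 in UB minus SP (46.9%) and 4 in NP minus SP (57.8%). In the blocked fit without E12.5 replicate 1 these were 9 in eUB, 8 in iNP and 8 in iSP against E12.5 (64.7%, 48.6% and 63.6%), 2 in NP and 2 in SP between stages (8.51% and 6.27%), 4 in E12.5 NP minus SP, 3 in UB minus NP and 7 in UB minus SP (59.2%, 34% and 57.2%). Without a block and without replicate 1 of both groups the last 3 were 1, 5 and 6 (40.2%, 39.3% and 56.7%). Besides the stages of SP (1 without the block, 0 with it) and the comparisons above, the block moved no count of members by over 1.5 times. In the 17 comparisons other than E12.5 NP minus SP, not every pair of libraries with the same number had a correlation of deviations over 0.1. Every sample correlated best with its own number in 1 of the 18 comparisons, E12.5 NP minus SP.

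Leaving out replicates, with the fits without E12.5 replicate 1 included, blocked or not, gave 3 to 9 members called in eUB (34.3% to 64.7% of all genes), 3 to 8 in iNP (33.3% to 48.6%) and 3 to 8 in iSP (54.4% to 69.9%) against E12.5. They gave 1 to 4, 0 to 3 and 0 to 4 between the stages of UB, NP and SP (17.2% to 44%, 1.11% to 17% and 2.91% to 21.5%), 3 to 5 in iNP minus iSP (23.6% to 43.8%), 2 to 5 in E11.5 NP minus SP (33.8% to 46.7%), 0 to 4 in E12.5 NP minus SP (26% to 59.2%), 0 to 5 in UB minus NP (21.9% to 39.3%), 0 to 7 in UB minus SP (35.8% to 57.2%) and 3 to 7 by interaction of UB and NP (35.7% to 47.5%). Over all genes the calls ran from 2332 to 5982 between the stages of UB, 147 to 2249 of NP and 392 to 2889 of SP, and at E12.5 from 3468 to 7618 in NP minus SP and 2924 to 4976 in UB minus NP, with 5027 without replicate 1 of both groups. Of all genes, the block called 2365 between the stages of UB (3648 without it) and 7961 in E12.5 NP minus SP, 7618 without replicate 1 (4789 with neither). Between the stages of NP a filter of 5 gave 469, the fit of all samples 1528 and DESeq2 1912, against 850, and between those of SP 762, 2987 and 2097, against 1162. The cause of these changes was not tested. Slc7a11 in replicate 1 of E12.5 NP and SP rested on 10 and 9 reads, which limits its precision.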
